A study of Mus musculus with 6 samples.

Results

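Genes of mitosis and chromosome segregation were examined in activated CD4 T cells from mice lacking the microRNA miR-155 (KO) and from wild-type mice (WT). The members were 44 genes listed by name for their roles in mitosis, and every probe set carrying one of those symbols and no other in GEO's annotation of the array was taken, which left out 1 probe set that Foxm1 shares with other genes. Of the 44 genes, 41 had a probe set (74 probe sets in all), and all 41 were among the 9295 genes tested. Ccnb1, Cdca8 and Espl1 matched no probe set, of 1 symbol or several, in the annotation used and were not analysed here. Both groups were of strain C57BL/6 with 3 arrays each, KO replicates 1 to 3 and WT replicates 1 to 3, and the mice differed by the labels only in carrying or lacking miR-155. The labels name no conditional allele, and no age is given in the sources used here. CD4+ cells of spleen and lymph node were isolated on magnetic beads and kept for 3 days with interleukin 2 (20 U/mL) and with antibodies against CD3 and CD28 (1 µg/mL), so all groups shared the stimulation and had no unstimulated counterpart. Each array was stated to come from its own mouse.

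When a T cell divides, cyclin-dependent kinase 1 bound to A- and B-type cyclins drives it into mitosis, condensin and topoisomerase II compact and untangle the chromosomes, and kinetochores attach them to the spindle. The spindle checkpoint holds back the anaphase-promoting complex (APC/C) until every chromosome is attached. The complex then marks cyclin B and securin for destruction, sister chromatids separate, and the cell is cut apart at cytokinesis. The transcripts of these genes accumulate together as cells approach mitosis, and stimulated T cells are known for rapid division. In a bulk sample, fewer cells in mitosis and less RNA per cell cannot be told apart.

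The gene group was also looked at for shared sequence. Many promoters of this group are known to hold a cell cycle genes homology region (CHR), a short element bound through LIN54 by the MuvB complexes, together with CCAAT boxes, which bind NF-Y. The CHR core TTTGAA, the CCAAT box CCAAT and the E2F site core TTCCCGC were searched on both strands in RefSeq promoters (build GRCm38.p6) running from 250 bases before to 50 bases after the transcript start. Of the 44 genes, 36 had a promoter entry. The CHR core was present in 27 of these 36 genes (75.0%), against 20.2% of 27025 genes with an entry and 13.96% of 7534 genes that were both tested and had one. CCAAT was present in 28 of the 36 (77.8%), against 41.1% of all genes, and 24 of the 36 (66.7%) held both, against 8.97% of all genes. The E2F core occurred in 0 of the 36 and in 5.29% of all genes, which says only that these 7 letters are not in these windows.

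Where the CHR core occurred, it lay close to the start. Of 29 member promoters with the core (2 genes had 2 promoter entries), 26 or 89.7% had it between 50 bases before and 49 bases after the start, against 27.6% of the 5878 promoters of all genes with the core. The following 30-base windows on the gene strand show it in capitals for some of the members described below. These were picked from the 27 of 36 genes that hold the core, so they do not stand for the members without it. TTCAAA is the same core on the opposite strand. Of the windows shown, that of Mki67 lies upstream of this range, with the core at position -98.
Ttk (chr9:83834684-83834713, + strand): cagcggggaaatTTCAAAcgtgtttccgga
Kif4 (chrX:100626072-100626101, + strand): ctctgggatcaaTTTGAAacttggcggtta
Plk1 (chr7:122159453-122159482, + strand): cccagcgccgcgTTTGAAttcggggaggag
Cdc20 (chr4:118437344-118437373, − strand): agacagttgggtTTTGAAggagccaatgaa
Hmmr (chr11:40733412-40733441, − strand): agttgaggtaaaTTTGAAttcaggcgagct
Mki67 (chr7:135716460-135716489, − strand): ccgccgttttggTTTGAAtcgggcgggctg
Ccnb2 (chr9:70421533-70421562, − strand): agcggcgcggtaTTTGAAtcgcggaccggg

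The arrangement of both elements is seen in the 120 bases that end just before the start of Cdk1 and Top2a, in which every CCAAT box (CCAAT, or ATTGG on the opposite strand) and every CHR core is in capitals. Cdk1 has 2 of each there, and Top2a has 3 CCAAT boxes and 1 CHR core.
Cdk1 (chr10:69352913-69353032, − strand): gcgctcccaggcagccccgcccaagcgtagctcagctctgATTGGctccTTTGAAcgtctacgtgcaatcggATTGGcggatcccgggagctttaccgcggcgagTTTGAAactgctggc
Top2a (chr11:99024190-99024309, − strand): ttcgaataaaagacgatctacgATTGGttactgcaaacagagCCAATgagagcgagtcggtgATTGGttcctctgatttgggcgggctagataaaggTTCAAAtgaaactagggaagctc
In 1 of the 29 member promoters with a CHR core, and in 47 of the 5878 over all genes, a core overlapped a CCAAT box. A match in these letters is a description and does not show that a factor was bound.

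**Figure D1:**
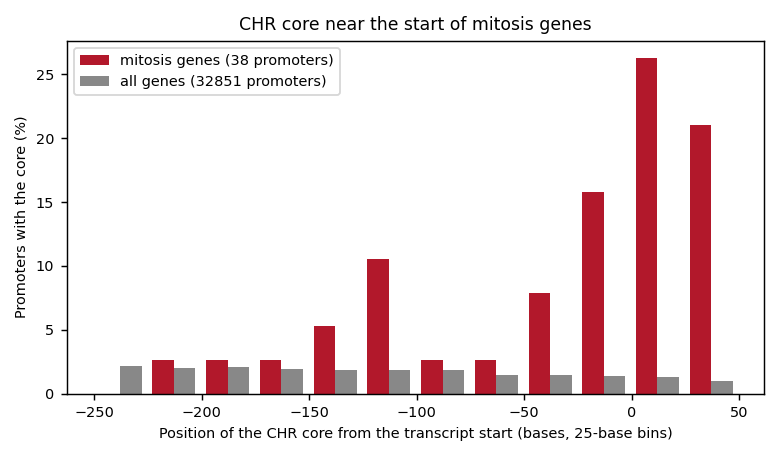
Share of promoters (vertical axis, percent) with a CHR core in each 25-base bin of position from the transcript start (horizontal axis, bases), for 38 promoters of mitosis genes (red) and 32851 promoters of all genes (grey). The red bars are highest in the bins from 25 bases before to 49 bases after the start, at 15.8%, 26.3% and 21.1%, where the grey bars are at 1.38%, 1.31% and 0.971%.

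The deleted gene and the arrays were checked before the members. The mature miR-155-5p (mmu-miR-155-5p, chr16:84714143-84714165, + strand, RefSeq GRCm38.p6), shown with its seed, bases 2 to 8, in capitals, is the molecule the KO mice lack.
mmu-miR-155-5p: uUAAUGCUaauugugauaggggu
Its host transcript Mir155hg measured 3.51, 3.89 and 4.45 in KO and 7.69, 6.59 and 8.21 in WT (log2). KO replicate 1 stood apart from the other 5 arrays, at -41.3 on a principal component holding 61.9% of the variance, where the others lay between -14.6 and 26.1. Xist measured 13.35, 5.94 and 12.59 in KO and 13.08, 5.66 and 12.64 in WT. The Y-linked Eif2s3y measured 3.497, 10.41 and 10.05 in KO and 3.44, 10.51 and 10.21 in WT. In both genotypes replicate 1 was thus high in Xist alone, replicate 2 in Eif2s3y alone and replicate 3 in both, so that cells of 1 mouse per array are not certain for replicate 3. Of 9 tested CD4 T cell markers, 7 were higher in KO, with a median difference of 0.21, and their mean log2 level lay between 11.26 and 11.47 in KO and between 10.89 and 11.32 in WT. WT replicate 1 was the lowest array in that mean, at 10.89. On the higher side, 2 of the 9 had an unadjusted limma p under 0.05, Cd28 at 0.67 and Zbtb7b at 0.48, beside 332 of all 9295 genes. The mean log2 level of 5 CD8 T cell markers lay between 6.66 and 6.81 in KO and between 6.62 and 6.93 in WT, and of 6 B cell markers between 7.08 and 7.72 in KO and between 6.85 and 7.98 in WT. The mean over 4 of 10 myeloid markers that were bright enough to be tested lay between 5.57 and 6.12 in KO and between 5.25 and 5.85 in WT.

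Every mitosis gene measured lower in KO than in WT. All 41 had a negative difference (KO minus WT, log2), from -0.78 for Mad2l1 to -0.21 for Smc4, with a median of -0.52, or 1.43-fold lower. Over all 9295 genes 50.8% were lower in KO and the median difference was -0.004. No gene passed limma's moderated test after Benjamini-Hochberg adjustment, so the percentage called over all genes was 0, and the smallest limma adjusted p of a member was 0.631. At an unadjusted limma p under 0.05, 7 of the 41 (17.1%) were lower in KO, Ttk, Bub1, Aurkb, Pttg1, Kif4, Tpx2 and Ndc80, against 3.86% of all genes on that side (359 genes). The count was 14 without KO replicate 2, and 2, 3 and 3 without WT replicate 1, 2 or 3. The shares of all genes were not counted in these fits, so these counts have no background beside them. In 21 members (51.2%) all KO arrays lay below all WT arrays, which held for 6.92% of all genes. A difference of at least 0.5 in that direction was measured for 22 members and for 5.91% of all genes. Since the members tend to vary together from array to array, their counts are not independent of each other.

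KO replicate 1 carried much of the size of the difference, though not its direction. It was the lowest of the 6 arrays in 39 of 41 members, against 30.2% of all genes, and its level lay below the mean of the other KO arrays by a median of 0.90 log2 units (KO replicate 1 minus that mean, -0.90, range -1.54 to 0.05). Mean levels of the 41 genes relative to the mean of all arrays were -0.84, 0.0027 and 0.07 in KO and 0.18, 0.20 and 0.39 in WT, so every KO array lay under every WT array. Without it, all 41 members were still lower in KO (52.4% of all genes), with a median of -0.20, or 1.15-fold. Leaving out a KO array cannot undo a separation, so the 21 members apart give nothing further here, where 11.4% of all genes were apart. At an unadjusted limma p under 0.05, 7 members were lower (2.64% of all genes), of which 5 were shared with the full comparison, Ttk, Bub1, Aurkb, Tpx2 and Kif4, and 2 were others, Cdk1 and Kif20a. A difference of at least 0.5 was left in 1 member, Ttk (2.90% of all genes). No member passed the limma adjusted test there either, the smallest adjusted p being 0.843. WT replicate 3 was the highest array in 30 of the 41 members, a count that was not made over all genes.

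**Figure D2:**
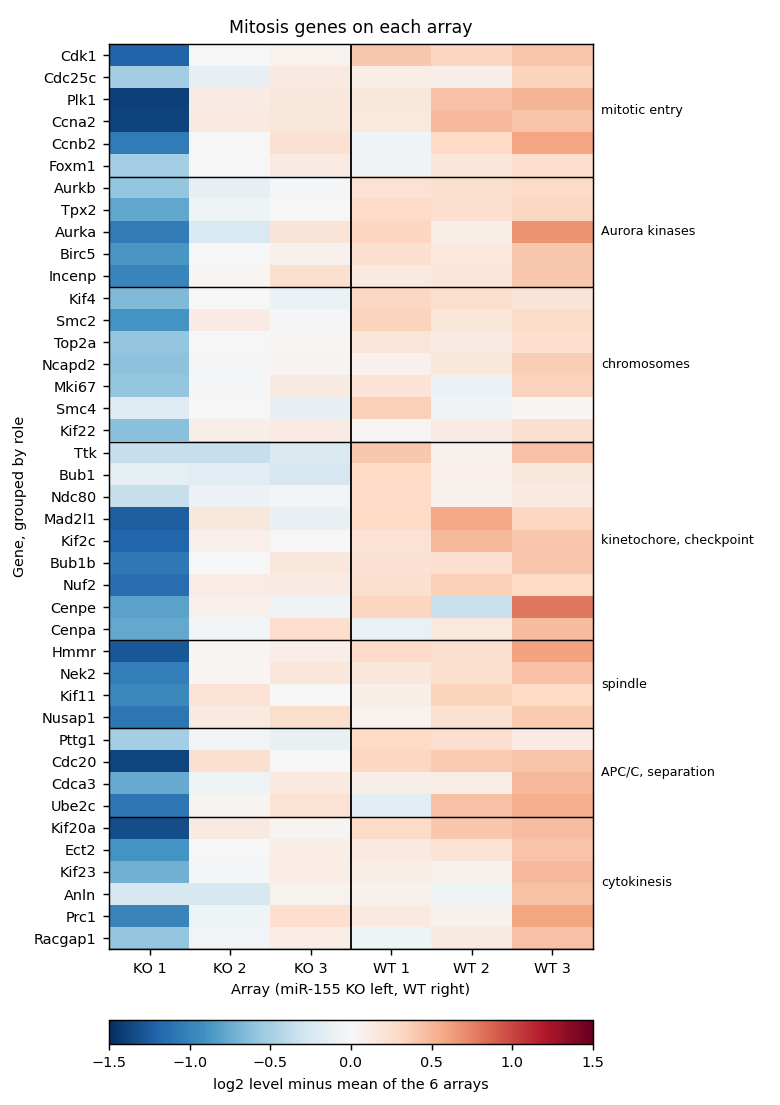
Log2 level of each of the 41 mitosis genes (rows, grouped by role) on each array (columns, KO left and WT right) minus that gene's mean over the 6 arrays, from blue (lower) to red (higher). KO replicate 1 is the lowest column in 39 rows, and Ttk and Bub1 are the exceptions, with all KO arrays at like levels.

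Genes of entry into mitosis were lower by a median of -0.64 (6 genes), and by -0.19 without KO replicate 1. Cdk1, the kinase that drives mitotic entry, measured 9.68, 10.87 and 10.94 in KO and 11.28, 11.21 and 11.30 in WT. The WT arrays lay within a narrow band, and each KO array was below it, KO replicate 1 furthest. The difference was -0.77 ± 0.33 (limma SE, 95% interval -1.56 to 0.03), and -0.36 ± 0.11 without KO replicate 1. Plk1, the polo-like kinase that acts from entry to cytokinesis, measured 8.23, 9.75 and 9.80 in KO and 9.80, 10.07 and 10.14 in WT. Its lowest WT array and highest KO array were almost level, and the difference of -0.74 ± 0.42 became -0.23 ± 0.15 without KO replicate 1. Foxm1, a transcription factor of the late cell cycle genes, measured 6.79, 7.31 and 7.42 in KO and 7.24, 7.48 and 7.55 in WT. The groups overlapped, and the difference was -0.25 ± 0.20 (-0.06 ± 0.14 without KO replicate 1). Of its other 3 probe sets, those at mean levels near 7 differed by -0.50 and -0.34, and 1 near background (mean 2.73) by 0.03. The cyclin genes Ccna2 and Ccnb2 differed by -0.72 and -0.55, and Cdc25c, the phosphatase that activates the cyclin B kinase, by -0.34. Without KO replicate 1 these were -0.20, -0.16 and -0.17, and the arrays of the genotypes overlapped for all 3.

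Among the Aurora kinases and their partners, the median difference was -0.54 (5 genes) and -0.32 without KO replicate 1. Aurkb, the kinase of the chromosomal passenger complex that corrects faulty attachments, measured 9.38, 9.83 and 9.94 in KO and 10.17, 10.19 and 10.24 in WT. All KO arrays lay below a tight WT group, with a difference of -0.49 ± 0.17 (SE, 95% interval -0.89 to -0.09) and -0.32 ± 0.11 without KO replicate 1. A dimmer probe set of Aurkb differed by -0.59. Tpx2, which activates Aurora A on spindle microtubules, measured 8.77, 9.48 and 9.54 in KO and 9.83, 9.80 and 9.86 in WT. Here too every KO array was below a tight WT group, and the difference was -0.56 ± 0.22, or -0.32 ± 0.11 without KO replicate 1. A dimmer probe set of Tpx2 differed by -0.86. Aurka, the spindle pole kinase itself, measured 8.43, 9.26 and 9.69 in KO and 9.81, 9.57 and 10.17 in WT. KO replicate 3 lay above WT replicate 2, and the difference was -0.72 ± 0.33 (-0.37 ± 0.22 without KO replicate 1). The passenger proteins survivin (Birc5) and Incenp differed by -0.54 and -0.48, and by -0.24 and -0.10 without KO replicate 1.

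Chromosome structure genes had a median difference of -0.37 (7 genes), or -0.17 without KO replicate 1. Kif4, a kinesin that binds chromosomes and helps to compact them, measured 8.02, 8.69 and 8.58 in KO and 9.001, 8.95 and 8.88 in WT. All KO arrays were below the WT arrays, by -0.51 ± 0.19 (SE, 95% interval -0.97 to -0.05), and by -0.31 ± 0.12 without KO replicate 1. Smc2, a core subunit of condensin, measured 9.68, 10.70 and 10.55 in KO and 10.91, 10.75 and 10.86 in WT. Its highest KO array lay just under the lowest WT array, with a difference of -0.53 ± 0.27 (-0.22 ± 0.12 without KO replicate 1). Top2a, the topoisomerase that untangles sister DNA, measured 11.78, 12.38 and 12.40 in KO and 12.55, 12.49 and 12.62 in WT. The KO arrays were all lower, by -0.37 ± 0.19 and by -0.17 ± 0.11 without KO replicate 1, and a second probe set near background (mean 4.46) differed by 0.11. Mki67, which encodes the proliferation antigen Ki-67 that coats mitotic chromosomes, measured 11.30, 11.86 and 12.01 in KO and 12.09, 11.80 and 12.24 in WT. The groups overlapped, and the difference of -0.32 ± 0.22 became -0.10 ± 0.17 without KO replicate 1. The condensin genes Ncapd2 and Smc4 differed by -0.39 and -0.21, and the kinesin gene Kif22 by -0.27 (-0.19, -0.16 and -0.02 without KO replicate 1). The brightest Kif22 probe set ends in _x_at, a suffix for probes that can match other transcripts, and the other Kif22 probe sets differed by -0.56 and -0.54. The brightest probe sets of Aurkb, Incenp, Kif2c and Cdc20 carry the same suffix.

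Kinetochore and checkpoint genes had a median difference of -0.59 (9 genes), or -0.25 without KO replicate 1. Of the 9, 3 had an unadjusted limma p under 0.05 (33.3%, beside 3.86% of all genes), Ttk, Bub1 and Ndc80. The share was 40% for the Aurora kinases and their partners (2 of 5), so this group did not stand out. Ttk, the kinase Mps1 that starts the spindle checkpoint, measured 8.28, 8.28 and 8.41 in KO and 9.03, 8.69 and 9.07 in WT. Every KO array, KO replicate 1 no more than the others, lay below every WT array. The difference was -0.61 ± 0.14 (SE, 95% interval -0.94 to -0.27), 1.52-fold lower in KO, and -0.59 ± 0.16 without KO replicate 1, and by unadjusted p it ranked 37 among the 9295 genes. Bub1, a checkpoint kinase at the kinetochore, measured 9.92, 9.91 and 9.82 in KO and 10.37, 10.14 and 10.24 in WT. The KO arrays again lay together, with KO replicate 1 the highest of them, and the difference was -0.37 ± 0.11 (95% interval -0.64 to -0.10), or -0.39 ± 0.13 without it. A dim probe set of Bub1 (mean 5.22) differed by -0.93. Ndc80, a subunit of the complex that grips microtubule ends, measured 8.21, 8.47 and 8.51 in KO and 8.84, 8.62 and 8.70 in WT. The groups did not overlap, and the difference was -0.32 ± 0.13, or -0.23 ± 0.12 without KO replicate 1.

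Other kinetochore and checkpoint genes were much lower on KO replicate 1 than on the other KO arrays. Mad2l1, the checkpoint protein that holds Cdc20, measured 9.40, 10.81 and 10.54 in KO and 10.94, 11.22 and 10.95 in WT. KO replicate 1 lay more than 1 log2 unit under the other KO arrays, which were themselves below all WT arrays. The difference was -0.78 ± 0.36, and -0.36 ± 0.16 without KO replicate 1. Kif2c, a microtubule-depolymerising kinesin at the centromere, measured 7.96, 9.23 and 9.14 in KO and 9.36, 9.64 and 9.56 in WT. Its shape was the same, with -0.74 ± 0.34 over all arrays and -0.33 ± 0.13 without KO replicate 1. Nuf2, the partner of Ndc80, and the checkpoint kinase gene Bub1b differed by -0.60 and -0.59 (-0.18 and -0.21 without KO replicate 1), both with the genotypes apart. The centromeric motor gene Cenpe and the centromeric histone gene Cenpa differed by -0.52 and -0.36 (-0.25 and -0.07 without KO replicate 1), with overlap, and Cenpe spread widely in WT, at 8.75, 8.09 and 9.22.

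**Figure D3:**
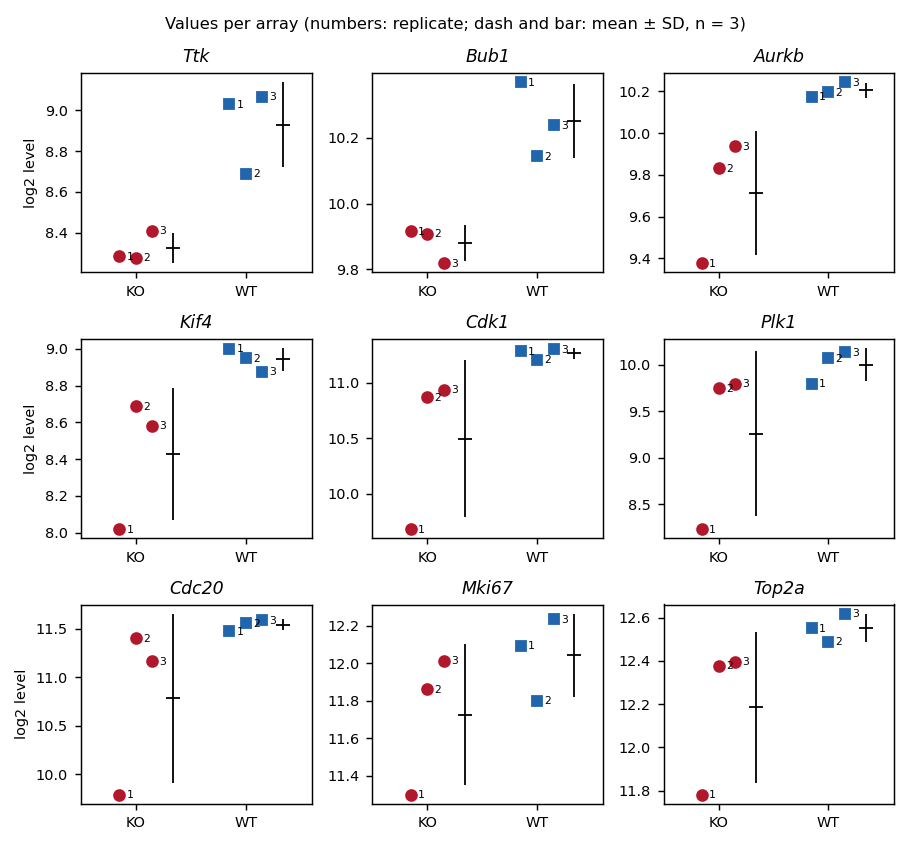
Log2 level on each array (vertical axes, scaled per gene and not starting at 0) for 9 mitosis genes, with KO (red circles) left of WT (blue squares), replicate numbers beside the points, and the mean ± SD (n = 3) as dash and bar. In Ttk and Bub1 the KO arrays lie together below WT, while in Cdk1, Plk1 and Cdc20 KO replicate 1 lies far below the other KO arrays.

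Spindle genes differed by a median of -0.53 (4 genes), and by -0.16 without KO replicate 1. Hmmr, a microtubule-binding protein of the spindle, measured 7.95, 9.26 and 9.32 in KO and 9.52, 9.46 and 9.83 in WT. All KO arrays were lower, by -0.76 ± 0.37, and by -0.31 ± 0.15 without KO replicate 1. The other 3 probe sets of Hmmr differed by -0.59, -0.50 and -0.58, and the genotypes overlapped in each of them. Nek2, a kinase of centrosome separation, measured 6.77, 7.84 and 7.98 in KO and 7.98, 8.05 and 8.25 in WT. KO replicate 3 was level with WT replicate 1, and the difference was -0.56 ± 0.32 (-0.18 ± 0.14 without KO replicate 1). Kif11, the kinesin that pushes spindle poles apart, and Nusap1, a spindle-stabilising protein, differed by -0.49 and -0.45. Without KO replicate 1 they differed by -0.13 and -0.02, Nusap1 keeping the smallest share of its difference of all members (5.30%).

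Genes of the APC/C step and of chromatid separation differed by a median of -0.51 (4 genes), or -0.22 without KO replicate 1. Pttg1, the securin that keeps separase inactive, measured 10.16, 10.63 and 10.56 in KO and 10.97, 10.91 and 10.80 in WT. All KO arrays were lower, by -0.44 ± 0.16 (SE, 95% interval -0.82 to -0.06), and by -0.29 ± 0.12 without KO replicate 1. Its dimmer probe sets differed by -0.46 and -0.06. Cdc20, the APC/C activator, measured 9.79, 11.41 and 11.17 in KO and 11.48, 11.56 and 11.59 in WT. The KO arrays were below a narrow WT group, by -0.75 ± 0.40, and by -0.26 ± 0.13 without KO replicate 1. Ube2c, the ubiquitin-conjugating enzyme of the APC/C, measured 11.03, 12.16 and 12.33 in KO and 11.97, 12.55 and 12.66 in WT. KO replicates 2 and 3 lay between WT replicate 1 and the other WT arrays, and the difference was -0.55 ± 0.37 (-0.15 ± 0.23 without KO replicate 1). Cdca3, which promotes the destruction of the kinase Wee1, differed by -0.46 (-0.19 without KO replicate 1), with overlap.

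Cytokinesis genes had a median difference of -0.47 (6 genes), and -0.19 without KO replicate 1. Kif20a, a kinesin of the central spindle, measured 7.63, 9.10 and 9.01 in KO and 9.27, 9.37 and 9.43 in WT. All KO arrays were lower, by -0.77 ± 0.38 and by -0.30 ± 0.12 without KO replicate 1. Prc1, which bundles the midzone microtubules, measured 8.24, 9.15 and 9.48 in KO and 9.36, 9.29 and 9.81 in WT. The groups overlapped, and the difference was -0.53 ± 0.33 (-0.17 ± 0.21 without KO replicate 1). Ect2, the activator of RhoA at the cell equator, differed by -0.52 (-0.20 without KO replicate 1) with the genotypes apart. The centralspindlin genes Kif23 and Racgap1 differed by -0.42 and -0.34, and the ring scaffold gene Anln by -0.28, with overlap in all 3 (-0.17, -0.13 and -0.23 without KO replicate 1).

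The members differed in how far they depended on KO replicate 1. The difference left without it was a median 40.9% of that over all arrays, and 31 of the 41 kept less than 50%. Bub1 (105%), Ttk (96.8%), Anln (82.4%), Smc4 (78.7%) and Ndc80 (71.1%) kept the most, and these were not one role group. Over the 74 probe sets, 72 were lower in KO (49.6% of all 22626), 11 of them with an unadjusted limma p under 0.05 (3.33% of all) and 36 with all KO arrays below all WT arrays (5.83% of all). The exceptions were the near-background probe sets of Foxm1 and Top2a given above. The members with and without a CHR core did not stand apart in size, with medians of -0.52 (25 genes) and -0.53 (8 genes). For any single gene with 3 arrays against 3, an exact two-sided permutation test cannot give a p below 0.1.

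**Figure D4:**
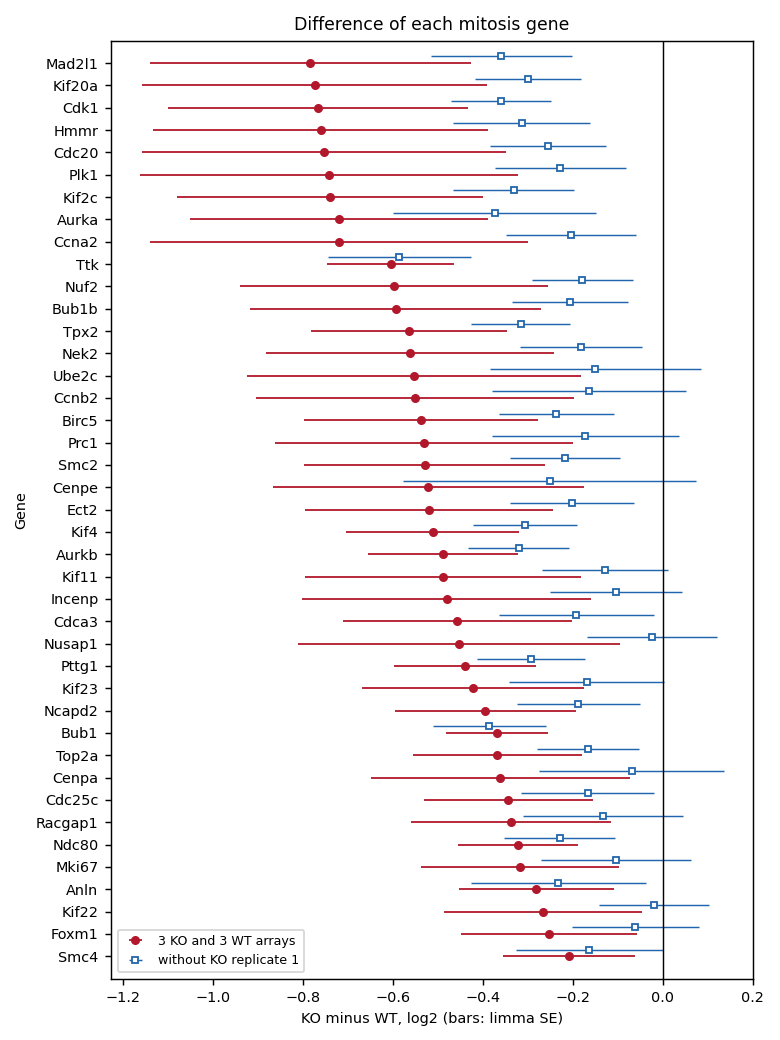
Difference of each of the 41 mitosis genes (KO minus WT, log2, horizontal axis) with its limma SE, over all 6 arrays (red circles) and without KO replicate 1 (open blue squares), ordered by size. All 41 lie below 0 in both comparisons, with medians of -0.52 and -0.20, and Ttk and Bub1 barely move.

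Other genes of mitosis gave similar values. Of a further 60 tested mitosis genes, 54 were lower in KO, 17 of them with an unadjusted limma p under 0.05 (28.3% of the 60, beside 3.86% of all genes) and 0 on the higher side, and the median was -0.45 (-0.21 without KO replicate 1, with 51 of 60 lower and 10 at an unadjusted limma p under 0.05 on that side, 16.7% beside 2.64% of all genes). The smallest p were those of Haus1, a spindle augmin subunit, at -0.63, the kinase gene Melk at -0.60 and the kinetochore gene Cenph at -0.55. Beside the members' median of -0.52, the 13 tested genes of APC/C subunits and partners had a median of -0.09, with 10 lower. Of these 13, 1 had an unadjusted limma p under 0.05 (7.69%, beside 3.86% of all genes), Anapc5 at -0.50. In the promoters of these lists, the CHR core was present in 33 of 64 further mitosis genes (51.6%) and in 1 of 13 APC/C genes (7.69%).

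DNA replication genes, which act in the preceding S phase, were also lower in KO, with another order of the arrays. Of 39 tested, 38 were lower in KO and 21 had an unadjusted limma p under 0.05 on that side (53.8%, beside 3.86% of all genes). Their median was -0.64 beside the members' -0.52. Without KO replicate 1 the median was -0.39 beside the members' -0.20, and 11 of the 39 had an unadjusted limma p under 0.05 on that side (28.2%, beside 2.64% of all genes). Their mean levels relative to all arrays were -0.65, 0.06 and -0.27 in KO and 0.45, 0.33 and 0.08 in WT. KO replicate 3 thus lay well under KO replicate 2 and WT replicate 3 was the lowest WT array, whereas for the mitosis genes KO replicate 3 was level with KO replicate 2 and WT replicate 3 was the highest. This difference between the lists was not tested. Among replication promoters, 6 of 35 (17.1%) held the CHR core and 14 of 35 (40.0%) the E2F core, against 27 of 36 and 0 of 36 mitosis genes. The CCAAT box was less particular to the members (77.8%). It was present in 60.0% of the replication genes, 62.5% of the further mitosis genes, 55.0% of G1 regulators and 38.5% of APC/C genes. Regulators of G1, such as D-type cyclins, their kinases and inhibitors, had a median of -0.15, with 15 of 24 lower and 0 at an unadjusted limma p under 0.05.

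Hypoxia response genes were mostly highest on KO replicate 1, and heat shock genes were mixed. Hypoxia response genes (17 tested) averaged 1.00, -0.43 and -0.17 in KO and -0.20, -0.12 and -0.08 in WT relative to the mean of all arrays, and 13 heat shock and stress genes averaged 0.76, -0.17 and -0.42 in KO and 0.15, -0.10 and -0.21 in WT. KO replicate 1 was the highest of the 6 arrays in 15 of the 17 hypoxia response genes (88.2%, beside 25.8% of all genes). Of the 13 heat shock and stress genes it was the highest in 4 and the lowest in 4 (30.8% each). Over all genes it was the highest in 25.8% and the lowest in 30.2%. A few genes thus carried that list's mean, such as Hspa1a, an inducible heat shock chaperone gene, at 9.72, 4.35 and 4.35 in KO and 4.37, 4.12 and 4.94 in WT (chosen after its values were seen). The part of these genes in the members' difference was not tested. Without that array the members' difference was smaller, with all 41 lower in KO and a median of -0.20. Of the 17 hypoxia response genes, 12 were then lower in KO too, also with a median of -0.20. Of the 13 heat shock and stress genes, 8 were lower, with a median of -0.13. Over all genes 52.4% were lower in that comparison.

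**Figure D5:**
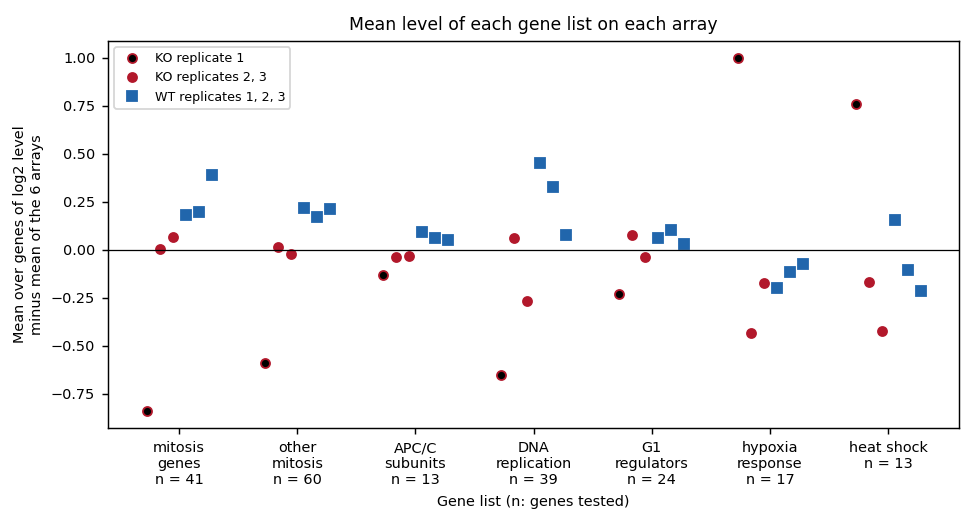
Mean over the genes of each list of the log2 level minus the gene's mean over the 6 arrays (vertical axis), for mitosis genes and 6 other lists (horizontal axis, n is genes tested), with KO arrays (circles, KO replicate 1 filled black) left of WT arrays (squares). For mitosis genes KO replicate 1 is at -0.84 and the other arrays between 0.0027 and 0.39, while for hypoxia response genes KO replicate 1 is at 1.00 and the others below 0.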

How the data were processed

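Total RNA of 6 cultures was hybridised to Affymetrix arrays. The deposited values are log2 probe set summaries. The submitters' processing notes name RMA and affy as the authors' tools, without versions. RMA puts all arrays on a common distribution and compresses differences of dim probe sets. Detection calls were not used, and with 3 arrays a group precision is limited by their number. Names of probe sets came from GEO's platform annotation (20380 with 1 gene symbol, 691 with several, 1555 with none, 64 controls). The brightest probe set stood for each of 12393 genes, and the dimmest 25% of genes were left out.

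The genotype difference was fitted in limma 3.58.1 (R 4.3.3) with lmFit and eBayes (Benjamini-Hochberg over 9295 genes), also without KO replicate 1 and over all 22626 probe sets. The code was tested on simulated data. The members, roles, lists and tests were chosen with earlier results of these data known. Every member is named. Values per array are given for members with an unadjusted p under 0.05, the 2 largest differences of each role, and Mki67, Foxm1, Cdk1, Plk1 and Top2a. From each other list at most 3 genes with the smallest p are named, apart from Hspa1a. Leaving out both replicate 3 arrays was chosen after seeing the data. Deviations of same-numbered KO and WT arrays correlated at -0.042, 0.64 and 0.40 for numbers 1, 2 and 3, and Xist and Y-linked levels match by number. The labels name no shared litter or batch, and the main fit did not pair the arrays by number. Differences between the numbers, sex-linked ones among them, therefore stayed in its error. A fit with the replicate number as a block is given below.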

Additional observations from a re-analysis of the deposited data

How the results depend on the processing

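The 41 members were lower in KO with any 1 array left out and under every other alternative but array weights, where 36 were. Their median difference ranged from -0.65 to -0.20 with 1 array left out, and KO replicate 1 moved it most. The count of members with an unadjusted limma p under 0.05 (7) ranged from 2 to 14 with 1 array left out, and was 2 without both replicate 3 arrays, 14 with the replicate number as a block and 11 with array weights. Shares of all genes at that p were counted only for the full fit and the fit without KO replicate 1. The other counts therefore cannot be set against all genes. With the array weights, 3575 of all 9295 genes passed the adjusted test, where every other setting gave 0. The weights were 5.55 for KO replicate 3 and 5.04 for WT replicate 2 and at most 0.58 for the others, so that fit compares little more than those arrays. It gave a median of -0.16 and turned Mki67 to 0.11, Cenpa to 0.033, Cenpe to 0.11, Anln to 0.042 and Prc1 to 0.066. Of 615 member values under alternatives, 5 changed sign and 7 passed the adjusted test, all with these weights. No member passed with the replicate block. Dim probe sets limit what can be read of small differences.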
